A study of Drosophila melanogaster with 9 samples.

Results

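The regions described here are the ChIP-seq peaks of pericentric heterochromatin and of chromosomes 4 and Y. A peak was a member when its summit, the point of highest signal, lay on 2L from position 22000000, on 3L from 22900000, on 3R below 4170000, on X from 22400000, or anywhere on chromosome 4 or Y, in dm6 coordinates. The rule used position only and no measured signal. It took 397 of the 29281 peaks in 4 lists. These were 85 of 6901 FLAG peaks and 93 of 6586 CP190 peaks in Pita wt embryos, and 92 of 7365 FLAG peaks and 127 of 8429 CP190 peaks in Pita ΔCP1+2 embryos. The rest of 2L, 3L, 3R and X, called the chromosome arms below, held 22806 peaks in the 4 lists and served as the comparison. Pericentric sequence that the rule does not name was not examined. Sites are named by the gene with the nearest annotated start. A site called near a gene has its nearest start there, and that start can be far away.

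The study asked whether Pita needs its CP190-binding region to occupy chromatin and to bring CP190 there. FLAG-tagged full-length Pita (Pita wt) or Pita without that region (Pita ΔCP1+2) was expressed in Drosophila melanogaster from the ubiquitous Ubi-p63E promoter, with both transgenes at the same landing site on chromosome 3, and whole embryos of the Oregon-R label were collected over 12 h according to the labels, while the study's methods state a different and later window, which was not settled here. The study worked with these transgenes in a background of hypomorphic pita alleles, whereas the sample labels name no pita allele. Chromatin was precipitated with anti-FLAG or anti-CP190 antibodies, in 2 replicates for each antibody and line, and 1 preimmune sample of Pita wt, made with nonspecific mouse IgG, was the control for all 4 lists. Each list pools its 2 replicates, so no value below has a replicate error and no test between the lines was possible. In the study's supplement, the self-consistency ratio of the replicates exceeded the study's stated limit for both Pita wt lists. It stayed below that limit for both Pita ΔCP1+2 lists. The part of this unequal reproducibility in sites held by a single line was not tested. The 95% intervals of shares are Wilson intervals over peaks, and those of medians are binomial intervals over peaks. They cover counting error only, neighbouring peaks are not independent, and the read depth behind each list is unknown.

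Pericentric heterochromatin is the compact, repeat-rich DNA that flanks the centromeres. It carries histone H3 methylated at lysine 9 and the protein HP1a, and it holds few genes, often with very long introns full of transposable elements. Chromosome 4 of Drosophila is a small, mostly heterochromatic chromosome whose genes are nevertheless active and are bound by the chromosome-specific protein POF. Pita is a zinc finger protein that recognises a long DNA motif, and CP190 is a BTB-domain protein that is brought to chromatin by Pita and other architectural proteins.

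Matches to the Pita motif under some of these peaks are shown first. Each peak was given a window of 500 bp around its summit, and the 21-position Pita matrix of the study was slid over both strands. The p of a match is the exact probability of a score as high at 1 random position with equal base frequencies. Sequences are from the RefSeq dm6 assembly, read 5′ to 3′ on the strand of the match, with the 21 matched bases in capitals and 30 flanking bases on each side. The first 4 are the matches with p under 1e-06, all of them on X, and the next 4 lie under sites that only Pita wt lists held, with a weaker match.
Usp2 (chrX:22455691-22455771, plus strand): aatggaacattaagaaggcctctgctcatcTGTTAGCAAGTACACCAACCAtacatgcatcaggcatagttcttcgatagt
X repeat a (chrX:23372004-23372084, minus strand): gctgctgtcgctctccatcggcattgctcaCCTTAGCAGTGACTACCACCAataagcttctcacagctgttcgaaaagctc
X repeat b (chrX:23375316-23375396, minus strand): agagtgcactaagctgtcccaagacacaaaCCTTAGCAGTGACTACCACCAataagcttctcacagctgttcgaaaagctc
X repeat c (chrX:23531111-23531191, plus strand): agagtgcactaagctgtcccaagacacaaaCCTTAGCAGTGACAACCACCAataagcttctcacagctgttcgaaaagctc
spok (chr3R:3374307-3374387, minus strand): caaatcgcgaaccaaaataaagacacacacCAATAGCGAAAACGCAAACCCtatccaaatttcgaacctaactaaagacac
fuss (chr4:979827-979907, plus strand): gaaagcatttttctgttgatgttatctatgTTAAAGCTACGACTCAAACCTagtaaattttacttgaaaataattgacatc
Taf3 (chr4:463653-463733, minus strand): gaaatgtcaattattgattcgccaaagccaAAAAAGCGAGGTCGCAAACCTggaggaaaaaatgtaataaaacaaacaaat
Sox102F (chr4:835609-835689, plus strand): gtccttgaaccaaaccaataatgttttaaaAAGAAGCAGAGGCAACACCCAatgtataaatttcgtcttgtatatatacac

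The 3 X repeat matches are near copies of each other. Repeats a and b share all 21 bases of the match, and c has 20 of the 21 in common with both. With the flanks included, b and c are identical at 80 of 81 positions although they lie on opposite strands, and a and b at 56 of 81. The Usp2 match had the lowest p, 5.95e-08, and repeats a and b had 5.91e-07 and c 4.07e-07. The matches at Taf3 (3.5e-06), spok (1.06e-05), fuss (1.61e-05) and Sox102F (4.8e-05) were weaker. Some sites with Pita ΔCP1+2 peaks had a closer match than Sox102F. Among them were a site in an intron of Pzl on 3R (1.92e-05, FLAG list of Pita ΔCP1+2 alone) and a 3L site towards AGO3 (3.24e-05, all 4 lists).

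Strong CP190 sites also lay on sequence without a match below 0.0001. Shown on the plus strand are a CP190 summit in an intron of Asator, the whole interval between the divergent genes Thd1 and Pur-alpha, and the X summit that ranked highest of all members, with the 21 bases around the summit in capitals.
Asator (chr4:486694-486814, plus strand): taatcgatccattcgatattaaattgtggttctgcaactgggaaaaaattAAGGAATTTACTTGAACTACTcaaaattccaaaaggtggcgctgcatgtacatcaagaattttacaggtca
Thd1 to Pur-alpha (chr4:557855-558015, plus strand): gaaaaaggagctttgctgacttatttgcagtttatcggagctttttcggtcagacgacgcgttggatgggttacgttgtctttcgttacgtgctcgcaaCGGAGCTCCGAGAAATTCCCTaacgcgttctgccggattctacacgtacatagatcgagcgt
X summit (chrX:23348072-23348192, plus strand): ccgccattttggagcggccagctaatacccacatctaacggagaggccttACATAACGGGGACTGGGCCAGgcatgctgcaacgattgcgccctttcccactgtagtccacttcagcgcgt
Many 3L members lay over gypsy8 transposable elements. The next pair shows the strongest gypsy8 window, towards AGO3, beside the gypsy8 window that aligned best with it, both read along the element, with the 192 bases that are identical in the 242-column alignment (79.3% identity) in capitals.
gypsy8 near alpha-Cat (chr3L:23311944-23312157, minus strand): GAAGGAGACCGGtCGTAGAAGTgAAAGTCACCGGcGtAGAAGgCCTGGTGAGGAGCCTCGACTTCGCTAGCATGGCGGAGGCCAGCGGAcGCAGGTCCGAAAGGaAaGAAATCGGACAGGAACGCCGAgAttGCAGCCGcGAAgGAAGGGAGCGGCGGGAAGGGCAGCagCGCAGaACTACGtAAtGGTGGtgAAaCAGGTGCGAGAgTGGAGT
gypsy8 towards AGO3 (chr3L:23459833-23460074, minus strand): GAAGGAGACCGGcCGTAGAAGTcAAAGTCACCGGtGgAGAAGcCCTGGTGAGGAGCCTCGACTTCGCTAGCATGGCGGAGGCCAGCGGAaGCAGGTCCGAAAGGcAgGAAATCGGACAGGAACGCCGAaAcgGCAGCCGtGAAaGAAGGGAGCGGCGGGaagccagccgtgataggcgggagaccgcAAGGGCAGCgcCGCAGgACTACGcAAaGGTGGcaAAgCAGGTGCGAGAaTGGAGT

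Peaks were sparse in heterochromatin per length of sequence, while the number per gene differed between the stretches. Over 16.6 Mb of known member sequence, the FLAG lists had 5.11 peaks per Mb in Pita wt and 5.53 in Pita ΔCP1+2, against 56.4 and 60.6 on the arms. The CP190 lists had 5.59 per Mb and 7.63 per Mb in the same order of lines, against 54.0 and 68.7. Genes were sparse too, with 13.9 protein-coding genes per Mb of member sequence against 114 on the arms. Per 100 coding genes, the FLAG lists had 36.8 members in Pita wt and 39.8 in Pita ΔCP1+2, with 49.3 and 53.0 on the arms. The CP190 lists had 40.3 and 55.0, with 47.2 and 60.0 on the arms. These pooled values include the genes of chromosomes 4 and Y. The pericentric stretches alone were above the arms in all 4 lists, with 60.9 and 67.2 for FLAG and 63.3 and 94.5 for CP190. In Pita wt the number of FLAG peaks per 100 genes was above that of the arms on 3L (66.7) and on 3R (209), which has 11 coding genes. It was below that of the arms on 2L (29.7) and X (42.1). In Pita ΔCP1+2 the FLAG value of X was above that of the arms (55.3) and that of 2L below it (24.3). Chromosome 4 was lower still, with 80 coding genes and, per 100 genes, 8.75 FLAG peaks and 15.0 CP190 peaks for Pita wt, with 6.25 of each kind for Pita ΔCP1+2.

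The stretches differed from each other. The pericentric part of X was the densest, where FLAG reached 14.0 peaks per Mb in Pita wt against 18.4 in Pita ΔCP1+2, and CP190 reached 13.2 against 21.9. On 3L the members numbered 28 and 35 for FLAG and 30 and 44 for CP190, on 3R 23 and 21 and then 26 and 32, and on 2L 11 and 9 and then 10 and 20, each in Pita wt and Pita ΔCP1+2 in that order. X contributed 16 and 21 FLAG and 15 and 25 CP190 members. On chromosome 4 the counts were 7 and 5 for FLAG and 12 and 5 for CP190, so this was the stretch where the CP190 list of Pita ΔCP1+2 was shorter than that of Pita wt. Chromosome Y had no peak in Pita wt and 1 in each Pita ΔCP1+2 list.

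The fall in density was not placed exactly at the limits of the rule. Summed over the 4 arms, FLAG peaks of Pita wt fell from 34.1 per Mb in the last 0.5 Mb outside the limits to 12.5 in the first 0.5 Mb inside and 3.65 between 1 and 1.5 Mb inside. CP190 peaks of Pita wt followed with 38.2, 11.5 and 4.26 per Mb. The drop stood at the limit on 3L and 3R and was gradual on 2L. On X the last 0.5 Mb outside the limit was already empty in 3 of the lists, and the pericentric part was denser than it. The plot of peaks per Mb by distance from the limit shows all 4 chromosomes.

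**Figure D1:**
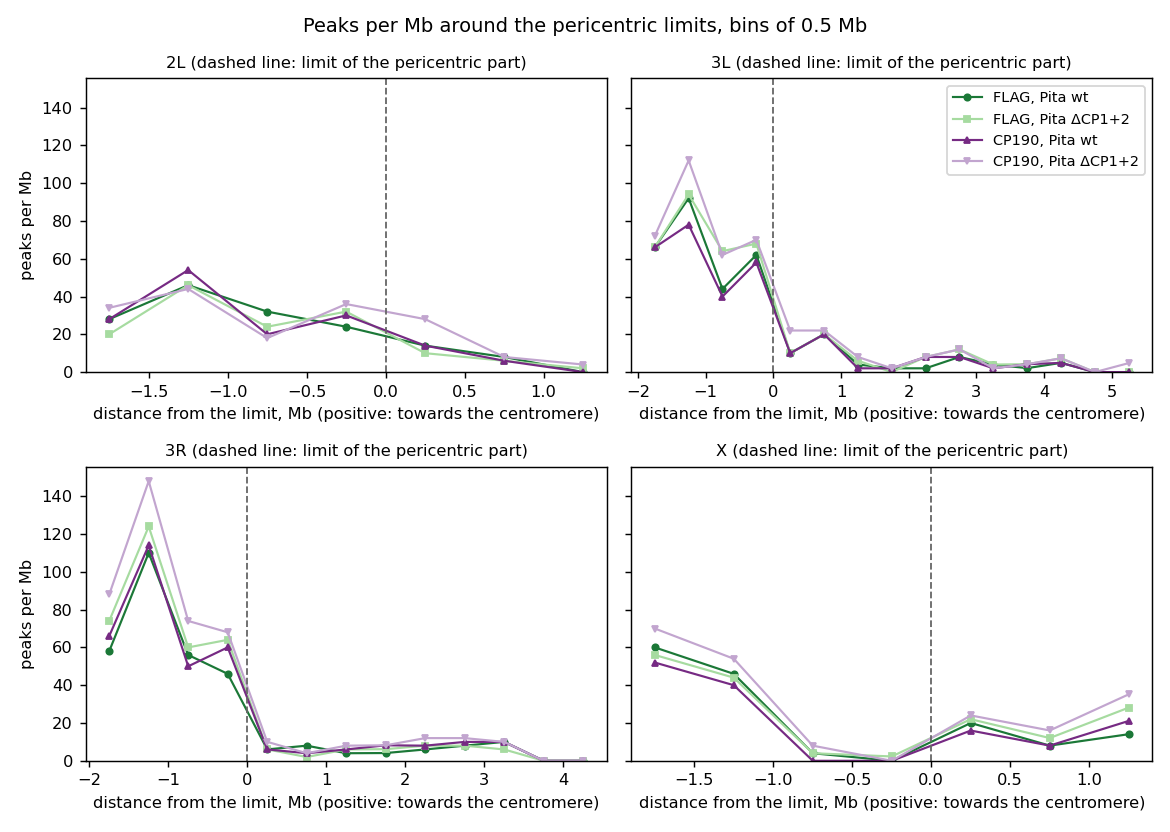
Peaks per Mb in bins of 0.5 Mb (vertical axis) against the distance from the limit of the pericentric part in Mb (horizontal axis, positive towards the centromere), 1 panel per chromosome and 1 line per list. Summed over the 4 chromosomes, FLAG peaks of Pita wt went from 34.1 per Mb just outside the limits to 12.5 just inside.

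At the 3L limit 1 site straddled the rule. Its CP190 summit in Pita ΔCP1+2, near CG11131, lay at the limit and was a member with a fold enrichment of 2.27, while the FLAG summits of Pita wt (1.91) and Pita ΔCP1+2 (2.31) and the CP190 summit of Pita wt (1.91) lay 3, 21 and 30 bp outside. On 3R the nearest peaks inside were those near CG41099, 262387 bp from the limit in the FLAG list of Pita wt, and the nearest outside those at CG12581, 5820 bp away. On 2L they were at CG31693, 11370 bp inside, and at lncRNA:CR44217, 44842 bp outside. On X the nearest FLAG peak of Pita wt inside was 44960 bp from the limit, near CG14621, and the nearest outside was 798961 bp away, near GCS2alpha.

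Pooled over the stretches, the median rank of members by fold was above that of arm peaks. The interval excluded the arm median for FLAG in Pita wt alone, and the stretches differed. The rank percentile places each peak among its own list by fold enrichment over the preimmune sample, with 100 for the strongest. Folds of separate lists are not on one scale, so ranks are compared between lists. The median percentile of FLAG members was 61.4 (53.9 to 69.5) in Pita wt and 57.8 (46.8 to 68.1) in Pita ΔCP1+2. That of CP190 members was 57.8 (49.95 to 69.1) and 53.6 (46.9 to 67.0), where arm peaks had medians from 50.2 to 50.7. Ranked by −log10 p instead, the Pita wt medians became 53.7 (FLAG) and 48.3 (CP190), and the Pita ΔCP1+2 medians 48.8 and 48.7. The X members ranked high in every list, with FLAG medians of 69.6 in Pita wt and 81.7 in Pita ΔCP1+2 and CP190 medians of 71.0 and 85.7. Chromosome 4 members were the lowest of the stretches for FLAG and the highest for CP190 in Pita wt, with medians of 29.6 and 76.6, and 2L members were low, with a FLAG median of 43.8 in Pita wt. The median fold enrichment of the members was 2.24, 2.08, 2.14 and 2.10 in the FLAG lists and then the CP190 lists of Pita wt and Pita ΔCP1+2, and the highest values were 4.26, 5.22, 8.22 and 5.15. Member peaks were narrower than arm peaks, with a median width of 451 bp against 500 bp for FLAG and 465 bp against 544 bp for CP190 in Pita wt.

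The members sat on sequence that was richer in GC and less masked than the stretches around them, and arm peaks likewise differed from the arms. The median GC content of members was from 54.6% to 55.4% in the 4 lists, close to the 56.4% to 56.8% of arm peaks. The stretches as a whole had 39.4% GC and the arms 42.4%. On average, repeat masking in the RefSeq assembly covered from 13.4% to 15.4% of a member window and 42.1% of the stretches. It covered from 7.34% to 8.94% of an arm window and 17.5% of the arms. Only uniquely aligned reads were kept by the authors, which by itself limits peaks in repeats. Chromosome 4 differed here, since its CP190 members in Pita wt had a median GC content of 42.4% and its FLAG members 45.2%. Windows masked over at least 50% of their length numbered 4 (FLAG) and 5 (CP190) for Pita wt, then 7 and 9 for Pita ΔCP1+2, and 6 of the last 9 were on X. These were 4.71%, 5.38%, 7.61% and 7.09% of members. Arm peaks had 0.373%, 0.311%, 0.364% and 0.291% in the same order, so such windows were more frequent among members.

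The share of FLAG members that recurred between the lines was below that of the whole lists, by a margin that depended on chromosome 4 and on the limits. Of the 85 FLAG members of Pita wt, 51 (60.0%, interval 49.4% to 69.8%) overlapped a FLAG window of Pita ΔCP1+2, against 71.6% of the whole list and 71.7% (70.5% to 72.9%) of arm peaks. In the other direction, 51 of the 92 FLAG members of Pita ΔCP1+2 (55.4%, 45.3% to 65.2%) overlapped a Pita wt window, against 66.8% of the whole list and 66.5% of arm peaks. With the limits moved 0.5 Mb away from the centromere, the share of Pita wt members was 71.5% of 151 and no longer lower, and with the limits moved 0.5 Mb towards it 63.3% of 60 (50.7% to 74.4%). The pericentric members alone gave 62.8% (51.7% to 72.7%) and, from Pita ΔCP1+2 to Pita wt, 57.0% (46.4% to 66.9%), intervals that include the arm shares. On chromosome 4 the counts were 2 of 7 and 2 of 5. The pooled share was below that of the arms on both sides of the list's median. Among members in the stronger 50% of the FLAG list of Pita wt, 39 of 55 (70.9%, 57.9% to 81.2%) recurred against 82.1% on the arms, and among the weaker ones 12 of 30 (40.0%, 24.6% to 57.7%) against 61.1%.

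CP190 peaks recurred about as often as elsewhere, with a split between the pericentric stretches and chromosome 4. Of the 93 CP190 members of Pita wt, 68 (73.1%, 63.3% to 81.1%) had a CP190 window in Pita ΔCP1+2, against 75.1% of the whole list. The share was 65 of 81 (80.2%, 70.3% to 87.5%) in the pericentric stretches and 3 of 12 (25.0%, 8.89% to 53.2%) on chromosome 4, so these intervals did not overlap. Of the 127 CP190 members of Pita ΔCP1+2, 68 (53.5%) had a window in Pita wt, against 58.7% of the whole list. CP190 members that were present in both lines tended to rank higher in the Pita ΔCP1+2 list, in 48 of 65 pericentric pairs (median difference 4.84 percentiles), as did 67.5% of arm pairs (median 7.20).

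Pooled over the stretches, Pita and CP190 coincided at most members, as they did at most peaks of the whole lists. In Pita wt 52 of 85 FLAG members (61.2%, 50.6% to 70.8%) overlapped a CP190 window, against 65.2% of the whole list. In Pita ΔCP1+2 the share was 74 of 92 (80.4%, 71.2% to 87.3%), against 73.5% of the whole list. Read from CP190, 52 of 93 members (55.9%) in Pita wt and 75 of 127 (59.1%) in Pita ΔCP1+2 had a FLAG window, against 68.2% and 64.2% of the whole lists. Chromosome 4 stood lowest, with a FLAG window at 2 of 12 CP190 members in Pita wt. A CP190 window was present at 2 of its 7 FLAG members in Pita wt and 2 of 5 in Pita ΔCP1+2. Between the lines, 11 of 16 FLAG members (68.8%, 44.4% to 85.8%) of Pita wt on pericentric X recurred in Pita ΔCP1+2. For CP190 it was 11 of 15 (73.3%, 48.05% to 89.1%). Both were close to the 71.75% and 74.5% of arm peaks.

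**Figure D2:**
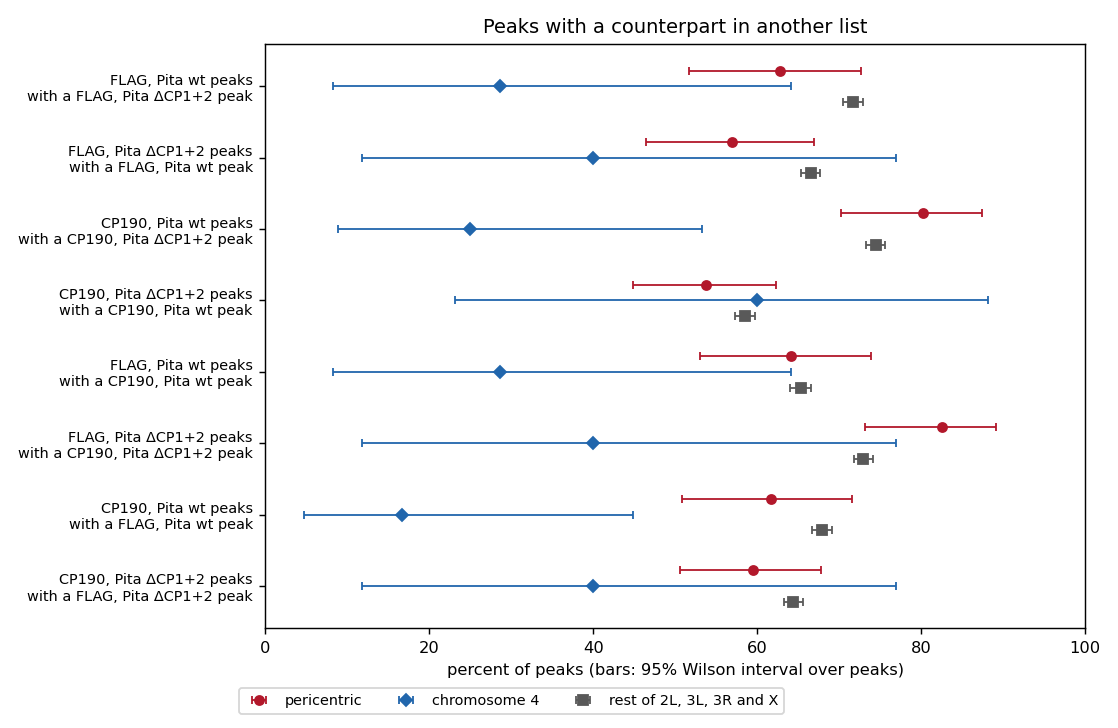
Percent of the peaks of 1 list that overlap a peak of another list (horizontal axis, bars are 95% Wilson intervals over peaks) for pericentric members, chromosome 4 members and the rest of 2L, 3L, 3R and X. For CP190 peaks of Pita wt found again in Pita ΔCP1+2 the pericentric share is 80.2% and the chromosome 4 share 25.0%.

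Merging overlapping windows of the 4 lists gave 180 sites in these stretches. Of these 38 (21.1%, 15.8% to 27.6%) were present in all 4 lists, against 28.1% of 9504 arm sites, and 69 (38.3%) in a single list, against 34.1%. Sites of the Pita ΔCP1+2 lists alone numbered 54 (30.0%) and sites of the Pita wt lists alone 35 (19.4%), where the arms had 27.0% and 15.5%. On chromosome 4 the balance was the opposite, with 12 of its 20 sites in Pita wt lists alone and 3 in Pita ΔCP1+2 lists alone. CP190 without FLAG in either line marked 53 sites (29.4%) and FLAG without CP190 in either line 28 (15.6%, 10.99% to 21.6%), where the arms had 24.0% and 18.0%.

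On chromosome 4 the strongest CP190 peaks of Pita wt had no CP190 peak in Pita ΔCP1+2. The 5 strongest lay near fuss, Pur-alpha, Asator, pan and Sox102F. The fuss gene encodes a Ski/Sno family transcriptional regulator, Pur-alpha a single-stranded nucleic acid binding protein, Asator a tau tubulin kinase, pan the TCF factor of Wingless signalling and Sox102F a SoxD factor. At fuss the CP190 peak of Pita wt had a fold enrichment of 7.80 and rank 55 of its list, its summit was 1531 bp from the fuss start in intergenic sequence, and a FLAG peak of Pita wt stood beside it with a fold of 2.08 and rank 3950. Neither antibody had a peak there in Pita ΔCP1+2. The fuss window carried the match printed above, with p of 1.61e-05.

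The Pur-alpha peak had a fold enrichment of 5.47 and rank 86, with its summit 52 bp from the nearest start. It fell inside the 161-bp interval between the divergent genes Thd1, a thymine DNA glycosylase, and Pur-alpha. The Asator peak, in an intron, had a fold of 5.04 and rank 94. The peaks near pan (fold 3.03, rank 297, 452 bp from the start) and Sox102F (2.80, rank 453) completed the set. None of the peaks at Pur-alpha, Asator, pan or Sox102F had a peak in any of the other 3 lists. Absence here means that no peak passed the authors' threshold there, since the signal itself was not analysed here. Strong CP190 peaks of Pita wt were often missing from the Pita ΔCP1+2 list on the arms too, where 32 of the 81 peaks ranked up to 100 (39.5%, 29.6% to 50.4%) and 251 of 401 ranked up to 500 (62.6%) were found again. For chromosome 4 the counts were 0 of 3 and 0 of 5, and for the pericentric stretches 0 of 1 and 8 of 9, sets that were formed after the values were seen.

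Few chromosome 4 sites had a peak of the same antibody in both lines. The coding-exon site of dati, a zinc finger gene, was the chromosome's only site in all 4 lists, with FLAG ranks of 6202 in Pita wt and 2523 in Pita ΔCP1+2 and CP190 ranks of 5860 and 7622. CP190 was also present in both lines near Actbeta, an activin-type ligand, with ranks 3597 and 5271, and at a site far from the Cadps start, with ranks 1851 and 7850. FLAG was present in both lines in an intron of ey, the Pax6 homologue, with ranks 5754 and 5304, and no CP190 peak was listed there. The strongest FLAG peak of the chromosome lay in a coding exon of Taf3, a TFIID subunit, with a fold of 2.54 and rank 1144 in Pita wt, and no other list had a peak there. CG11076 had a FLAG peak in Pita wt (2.28) and a CP190 peak in Pita ΔCP1+2 (1.95) and neither in the other line.

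**Figure D3:**
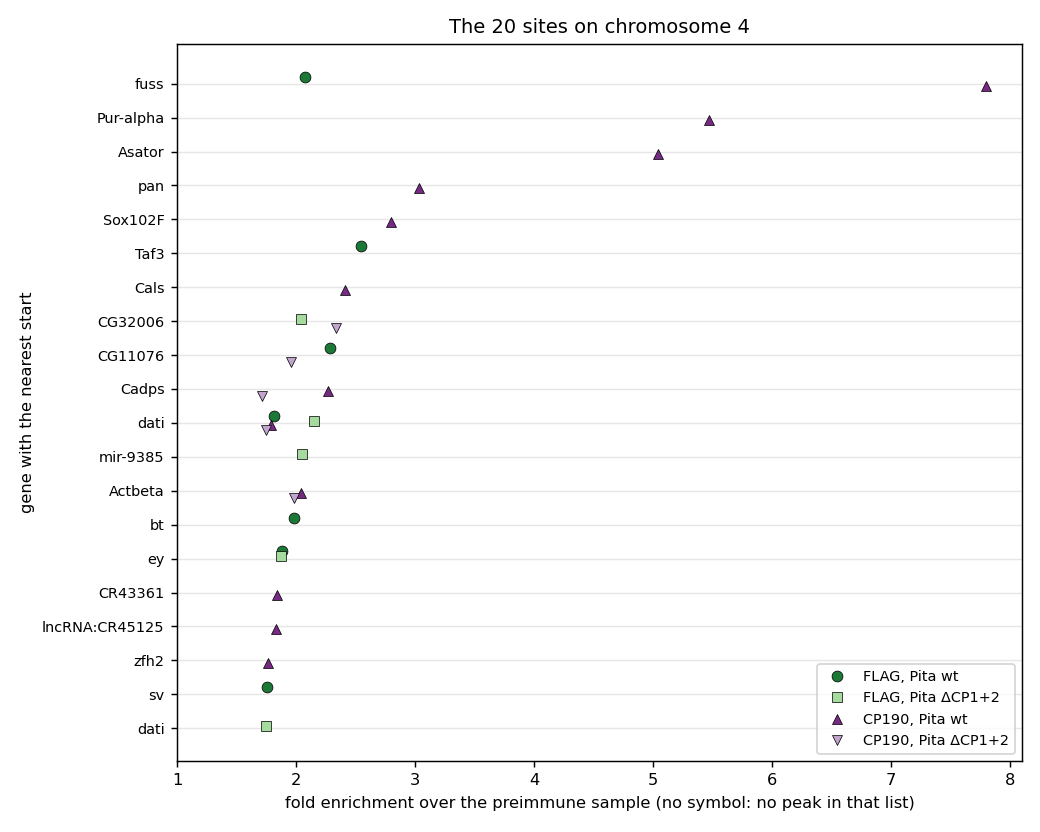
Fold enrichment over the preimmune sample (horizontal axis, starting at 1) at each of the 20 chromosome 4 sites, on a scale that belongs to each list, named by the gene with the nearest start, with 1 symbol per list and no symbol where a list has no peak. The CP190 peaks of Pita wt at fuss (7.80), Pur-alpha (5.47) and Asator (5.04) stand alone to the right with no CP190 symbol of Pita ΔCP1+2.

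In the pericentric stretches 1 strong site was also held by Pita wt lists alone. It lay in intergenic sequence of 3R, 51.5 kb from the start of spok, which encodes a cytochrome P450 of ecdysone synthesis. FLAG had a fold of 3.96 (rank 67) and CP190 of 8.22 (rank 53) in Pita wt, and neither antibody had a peak there in Pita ΔCP1+2. These were the strongest CP190 member and the second strongest FLAG member of Pita wt. A neighbouring site 59.3 kb from the spok start was present in all 4 lists, with FLAG folds of 3.00 and 3.17 and ranks 369 and 111 in Pita wt and Pita ΔCP1+2.

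Most other strong pericentric sites were present in both lines, as were most strong FLAG peaks of the arms. Of FLAG peaks ranked up to 500, 5 of 6 pericentric ones in Pita wt were found again, and 9 of 10 in Pita ΔCP1+2. The arms had 91.4% and 96.0%. For CP190 peaks of Pita ΔCP1+2 ranked up to 500 it was 12 of 12, against 96.8% on the arms. The highest-ranking member of the Pita ΔCP1+2 lists lay on X, 56.4 kb from the 2SrRNA:CR45864 gene, over an R1A1 element. Its FLAG fold was 4.26 in Pita wt and 5.22 in Pita ΔCP1+2 (ranks 48 and 7), and its CP190 fold was 4.09 and 5.15 (ranks 135 and 8). The gypsy8 site on 3L with AGO3 as its nearest gene, 94.8 kb from that start, had FLAG folds of 3.01 and 3.57 (ranks 360 and 39) and CP190 folds of 3.11 and 3.42 (ranks 260 and 75). AGO3 encodes an Argonaute protein of the piRNA pathway. At an intergenic site of 3R, 60918 bp from the CG41099 start, the CP190 rank was 494 in Pita wt and 44 in Pita ΔCP1+2. The FLAG ranks there were 858 and 870. In an intron of l(3)80Fg on 3L both FLAG lists had a peak, with ranks 114 and 441, and neither CP190 list did.

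Toward the end of the X assembly, around the ribosomal RNA genes, 13 sites lay within 314 kb. The nearest named genes were copies of the ribosomal RNA genes and mir-10404-5. The FLAG lists had 6 peaks there in Pita wt and 10 in Pita ΔCP1+2, and the CP190 lists had 7 and 12. Of the 13 sites, 5 were present in Pita ΔCP1+2 lists alone and none in Pita wt lists alone, where the arm sites had 27.0% and 15.5%. Repeat masking covered over 50% of the window at 6 of them. At the 4 sites present in every list, the rank in Pita ΔCP1+2 was better than in Pita wt for both antibodies, as with FLAG ranks of 579 and 79, 48 and 7, 2143 and 338, and 682 and 110. On the arms, 55.9% of FLAG pairs and 67.5% of CP190 pairs had the higher rank percentile in Pita ΔCP1+2. Reads from near-identical repeat copies cannot be told apart, and only uniquely aligned reads were kept by the authors, so a value in these repeats counts the unique part only. The Pita ΔCP1+2 line had no preimmune sample of its own, and the part of repeat copy number in these values was not tested.

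Other sites had a peak of an antibody in 1 line and not in the other. Besides spok and Taf3, the strongest FLAG members of Pita wt without a FLAG peak in Pita ΔCP1+2 lay in an intron of Myo81F on 3R (fold 2.69, rank 777), near CG43968 on 3L (2.63, rank 878) and in an intron of Snap25, a synaptic SNARE gene (2.56, rank 1100). In the other direction, apart from a Y site described below, FLAG members of Pita ΔCP1+2 without a FLAG peak in Pita wt were led by 3 X sites in the ribosomal neighbourhood, with ranks 478, 556 and 779, and by a coding exon site near CG34334 (rank 1360). The CP190 members of Pita ΔCP1+2 without a CP190 peak in Pita wt were led by 2 sites of 3L. Their nearest starts were those of CG43968 (29943 bp away, rank 577) and lncRNA:CR45174 (46077 bp away, rank 580). At both of these sites FLAG had a peak in both lines. The S6kII site on X, in a coding exon of a ribosomal S6 kinase gene 554 bp from its start, was present in all 4 lists, with FLAG ranks of 624 and 300 and CP190 ranks of 768 and 735 in Pita wt and Pita ΔCP1+2. On 2L the strongest FLAG member of both lines lay in an intron of CG40006, with ranks of 1063 and 649.

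**Figure D4:**
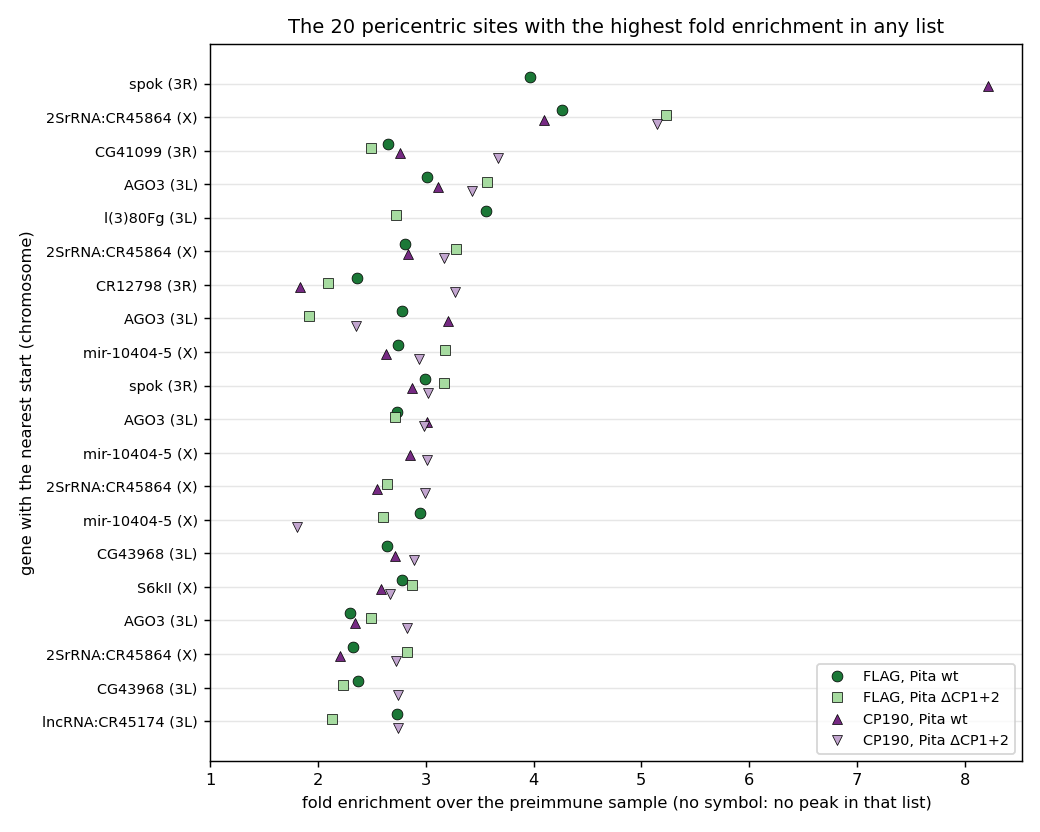
Fold enrichment over the preimmune sample (horizontal axis, starting at 1) at the 20 pericentric sites with the highest value in any list, on a scale that belongs to each list, named by the gene with the nearest start and the chromosome, with 1 symbol per list and no symbol where a list has no peak. The first spok site has symbols of Pita wt alone (FLAG 3.96, CP190 8.22), and the strongest 2SrRNA:CR45864 site has all 4.

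Transposable elements were far more frequent under members than under arm peaks. An annotated element overlapped 20 of 85 FLAG members (23.5%, 15.8% to 33.6%) and 19 of 93 CP190 members (20.4%, 13.5% to 29.7%) in Pita wt, and 21 of 92 (22.8%) and 32 of 127 (25.2%) in Pita ΔCP1+2. On the arms the shares were 0.280%, 0.214%, 0.260% and 0.0918% in the same order. The elements made up 13.8% of the member stretches and 4.01% of the arms.

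A small family, gypsy8, accounted for much of this. It is a retrotransposon of the LTR class, and in these stretches it had 29 annotated copies adding up to 33.8 kb, or 1.44% of the element sequence. It underlay 15 of the 35 sites that overlapped any element, and 12 of its 29 copies (41.4%) carried a site, where 41 of the 1951 element copies of all families (2.10%) did. By list, gypsy8 windows made up 10 FLAG members in Pita wt and 9 in Pita ΔCP1+2, and 8 and 14 CP190 members. INE-1, the most numerous family with 704 copies, underlay 4 sites, and Cr1a, with 78 copies, 5 sites. The family was singled out after its counts were seen, and copies of unequal length are not equally likely to meet a peak.

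Of the 15 gypsy8 sites, 4 lay on 2L, 10 on 3L and 1 on chromosome 4, and 6 were present in all 4 lists. The strongest was the AGO3 site described above, whose window had no masked base. A site near lncRNA:CR46475 had FLAG ranks of 1607 in Pita wt and 1625 in Pita ΔCP1+2 and CP190 ranks of 1327 and 839, and the site near Tif-IA, an RNA polymerase I initiation factor, had FLAG ranks of 3691 and 2455 and CP190 ranks of 2538 and 2840. At a gypsy8 copy near CG43968 a peak was listed for FLAG in Pita wt (rank 878) and for CP190 in both lines (ranks 551 and 381), and none for FLAG in Pita ΔCP1+2. Peaks of the CP190 list of Pita ΔCP1+2 alone lay near Vps11 (1.86) and at a pair of windows near alpha-Cat (2.18 and 1.73) that lay in 1 annotated copy of 8500 bp, which also held a site near lncRNA:CR46475. The windows resembled each other, since 18 of their 105 pairs aligned over at least 100 columns at 70% identity or more, with identities from 73.6% to 88.9%, and 13 of the 15 windows fell into 3 sets of such pairs. Similar windows share sequence and are not independent sites.

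**Figure D5:**
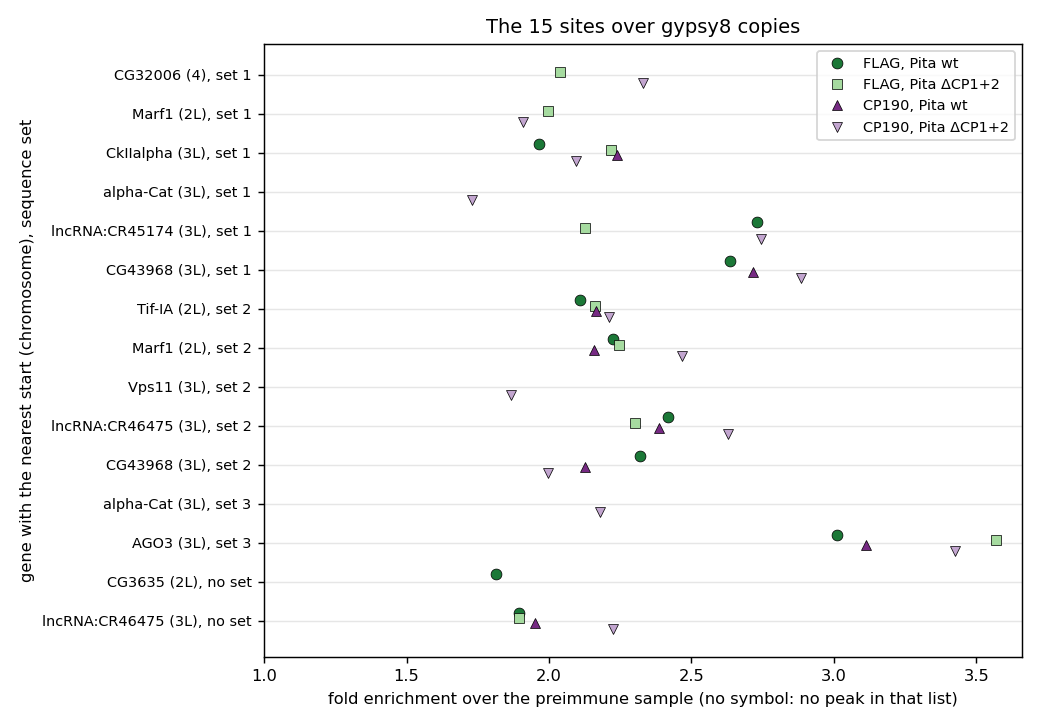
Fold enrichment over the preimmune sample (horizontal axis, starting at 1) at the 15 sites over gypsy8 elements, on a scale that belongs to each list, named by the gene with the nearest start, with 1 symbol per list and no symbol where a list has no peak. The AGO3 site has all 4 symbols, among them a FLAG fold of 3.57 in Pita ΔCP1+2.

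The Pita matrix matched few members. At p of 0.0001 a match was present in 8 of 85 FLAG members of Pita wt (9.41%, 4.85% to 17.5%) and 7 of 92 of Pita ΔCP1+2 (7.61%), against 12.4% and 11.3% of arm peaks. For CP190 it was 11 of 93 (11.8%) and 10 of 127 (7.87%), against 14.3% and 9.83%. Windows 5 kb to either side of the FLAG members of Pita wt had a match in 3 of 170 (1.76%), and those beside arm peaks of that list in 6.08%. These windows were not matched to the peaks in base composition, and each window offers many positions to a random match. The shares are therefore not a test of motif enrichment. The matrix was read from a page image of a supplement and a match is a description of the sequence. The Usp2 match lay under a CP190 peak of Pita wt alone, and repeat a of X lay under peaks of all 4 lists, repeat b of 3 lists and repeat c of the CP190 list of Pita ΔCP1+2 alone.

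Pooled over the stretches, members lay farther from gene starts than arm peaks did. The median distance to the nearest annotated start was 24280 bp for FLAG members of Pita wt and 36940 bp for those of Pita ΔCP1+2, against 1625 and 1684 bp on the arms. For CP190 it was 20130 and 25220 bp, against 1507 and 1616 bp. The stretches differed, since FLAG members of Pita wt had a median of 28550 bp on 3L and 60560 bp on 3R, but 1532 bp on X and 1533 bp on chromosome 4. A summit lay within 250 bp of a start at 5 of 85 FLAG members of Pita wt and 2 of 92 of Pita ΔCP1+2, and at 4 of 93 and 3 of 127 CP190 members. These are 5.88% (2.54% to 13.04%), 2.17% (0.598% to 7.58%), 4.30% (1.69% to 10.5%) and 2.36% (0.807% to 6.7%). The arms had 8.62%, 7.16%, 9.53% and 6.02%, so the intervals of all 4 lists include the arm share. Among FLAG members of Pita wt, 35 were intergenic, 30 intronic and 18 in coding exons. Among the members near starts was tio, a zinc finger gene of 2L, where the CP190 summit of Pita wt (2.33, the strongest of its stretch) lay 135 bp from the start.

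Start peaks were rare in the lists of named heterochromatic genes and on the arms alike, where from 3.09% to 4.27% of 10885 coding genes had one. Of 15 transcription and chromatin regulators of chromosome 4, ey and sv, both Pax family genes, had a FLAG peak at the start in Pita wt and ey alone in Pita ΔCP1+2, and none had a CP190 peak. Of 11 housekeeping genes of chromosome 4, Thd1 and Pur-alpha shared 1 CP190 peak of Pita wt. No start peak was listed for the 15 signalling and synaptic genes of chromosome 4, the 15 pericentric genes or the 12 Y genes. Within gene bodies, the unconventional myosin gene Myo81F of 3R, which spans 1966 kb, held 13 FLAG summits in each line and 17 CP190 summits in Pita wt and 20 in Pita ΔCP1+2, or 6.61, 6.61, 8.65 and 10.2 per Mb. An intronic site of Myo81F, 87168 bp from the CR12798 start, had CP190 ranks of 5535 in Pita wt and 124 in Pita ΔCP1+2, in a window masked over 68.0% of its length.

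The only site of chromosome Y lay 6561 bp from Su(Ste):CR42407, a copy of the repeats that silence Stellate in the testis. It was held by both Pita ΔCP1+2 lists, with FLAG fold 2.87 (rank 299) and CP190 fold 2.39 (rank 1689), and its window was fully masked. The labels do not give the sex of the embryos, and the amount of Y chromosome in each sample was not measured.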

How the data were processed

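ChIP-seq had been done on whole embryos of 2 lines with FLAG and CP190 antibodies, 2 replicates each, and 1 preimmune sample. The authors trimmed reads with cutadapt, mapped the reads with Bowtie version 2 to the dm6 genome, kept uniquely and concordantly aligned pairs, removed duplicates with Picard and removed blacklisted regions. They called peaks with MACS version 2 against the preimmune sample and passed them through IDR, which gave 1 pooled list per antibody and line. The deposited lists hold, per peak, a ratio (fold enrichment), a −log10 p and an IDR score, and these columns were made by the authors. Columns for the 2 peak sets that entered IDR name no replicate and were not used. Depth per sample is unknown from these lists, and fold enrichments of separate lists are not on one scale, so folds are printed as deposited and ranks are given for comparisons between lists.

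Members and gene lists were chosen with earlier results of these data known. Windows of 500 bp around summits were compared, with an overlap of 1 bp counted as shared. Genes and transposable elements came from Ensembl release 115, and repeat masking and sequences from the RefSeq dm6 assembly. Peaks on chromosome arms or scaffolds that the rule does not name were neither members nor arm peaks. They counted in the whole-list totals and shares only. The Pita matrix was read from a page image and scored exactly. Named sites were, in each list, the 5 strongest pericentric and the 5 strongest chromosome 4 members, the strongest of each stretch, wild-type members with a match under 1e-06, the 5 strongest without a counterpart in the other line, and the peaks nearest the limits. Sites of gypsy8, the ribosomal part of X and other named sites outside that rule were chosen after their values were seen. Alternatives changed the limits, the overlap, the rank measure, the list length, the start distance and the matrix threshold, and 1 more, chosen after seeing the data, left out members over transposable elements. Calculations used Python 3.11.15, pandas 2.3.3, NumPy 2.4.6, SciPy 1.17.1, Biopython 1.88 and matplotlib 3.10.9, and the overlap and matrix code was tested on simulated data.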

Additional observations from a re-analysis of the deposited data

How the results depend on the processing

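Of 117 alternative values for 19 results, 104 stayed within the interval or within 1.5 times of the reported value and 13 did not. With the limits moved 0.5 Mb away from the centromere, the members numbered 151 and 175 (FLAG, Pita wt and then Pita ΔCP1+2) and 167 and 214 (CP190), and 71.5% of the FLAG members of Pita wt recurred in Pita ΔCP1+2. Summed over the 4 arms, the added 0.5 Mb was denser than the first 0.5 Mb inside the limits. On X it was not, with 0.0 against 20.0 FLAG peaks per Mb in Pita wt. The part of this density in the changed values was not tested. When each list was cut to its 5000 strongest peaks, CP190 members of Pita ΔCP1+2 numbered 84 and 0.0% of FLAG members of Pita ΔCP1+2 lay near a start. With the limits moved 0.5 Mb towards the centromere, 1.43% of CP190 members of Pita wt and 0.0% of those of Pita ΔCP1+2 lay near a start. By rank of the −log10 p, the median percentile was 53.7 for FLAG and 48.3 for CP190 members of Pita wt. Matrix matches fell to 3.53% of FLAG members of Pita wt at p of 1e-05 and 2.35% at 1e-06. For the other changes the cause was likewise not tested. Without members over transposable elements, chosen after seeing the data, 53.8% of FLAG members of Pita wt recurred. No paired analysis was possible because each list pools its replicates, and for the same reason no replicate could be left out. The pooled lists and unknown depth limit every value to counting error over peaks.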
